A study of Bos taurus with 8 samples.

Results

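A set of 10 genes, cytosolic heat shock proteins and the HSP90 activator AHSA1, was followed in bovine blastocysts that developed with or without AAPH, an azo compound whose thermal breakdown yields peroxyl radicals. Members were all array probes annotated, case ignored, as HSPA1A, HSPA8, HSPA4, HSP90AA1, HSP90AB1, HSPB1, HSPD1, HSPE1, DNAJB1 or AHSA1. This gave 15 of 43794 probes and 10 of 15227 annotated genes, with 3 probes for DNAJB1, 2 each for HSPB1, HSPD1 and AHSA1, and 1 for each other gene. HSPD1 and HSPE1 encode mitochondrial proteins, so the set is not purely cytosolic. Embryos came from oocytes of slaughterhouse ovaries, were fertilized and cultured in vitro, and were collected 196 hours after fertilization in pools of 10. Treated embryos had 0.01 mM AAPH in the culture medium from day 3 to day 7, and controls had the same media without it. There were 4 pools per treatment, and every array hybridised AAPH RNA against control RNA, with AAPH in Cy5 on 4 arrays and in Cy3 on the 4 others. A pool averages its embryos and their cell types, and since no label separates the pools by fertilization run, the p-values below cover pool-to-pool spread, which may be technical.

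Heat shock proteins hold other proteins in a foldable state. HSP70s bind short unfolded stretches under the control of J proteins and nucleotide exchange factors, HSP90s finish the folding of kinases and receptors together with co-chaperones such as AHSA1, small heat shock proteins keep denatured proteins soluble, and HSP60 with HSP10 folds proteins in mitochondria. Heat, oxidants and other damage to proteins induce several of these genes through the transcription factor HSF1, while others are expressed constitutively. In early embryos, HSP70 transcripts are among the first made by the embryonic genome, as known from the mouse.

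The ratio is the log2 ratio of AAPH over control, averaged over the 2 arrays of opposite dye orientation that formed a swap pair, with the SD over 4 swap pairs. The labels do not state the pairs, which were taken from the correlation between arrays. The level is the log2 signal of a pool after scaling between arrays, and it can be set against another pool for 1 probe but not against another probe. Slide 26 held swap pairs 1 and 2, and slides 78 and 79 held pairs 3 and 4. On slide 26 between 18893 and 29406 probes were above background in Cy5 and between 33100 and 36330 in Cy3, against 13803 to 17999 and 25430 to 31725 on slides 78 and 79. All 15 member probes met the filter on dim probes through both RNAs. Of 11 trophectoderm markers, all were measured and 7 were above background on all 8 arrays in control RNA. Of 8 inner cell mass markers 6 were measured, and 4 were above background on all 8 arrays in control RNA, and of 7 hypoblast markers 6 and 4. The median ratios of these lists were -0.09, 0.02 and 0.07, with 0 genes past the threshold.

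No member passed the test between AAPH and control blastocysts. In the fit over all 31325 kept probes, 0 of the 15 had an adjusted p under 0.05 (limma with Benjamini-Hochberg adjustment), and the called share of all probes was 0%. The smallest adjusted p among the members was 0.181. At an unadjusted p under 0.05 there were 4 of 15 member probes, against 13.7% of all probes, with HSPA4 higher (1 of 15, against 5.73% of all) and DNAJB1 and both AHSA1 probes lower (3 of 15, against 7.93%). limma with an intensity trend and robust variances also called 0 members. In that fit 4 of 15 member probes had an unadjusted p under 0.05, against 4420 of all 31325 kept probes. The median ratio was -0.03 over the 15 probes and -0.0009 over all kept probes. A ratio above 0 was found for 5 member probes, with 10 below, against 49.7% of all kept probes above 0. Counting only the brightest probe of each gene, 4 genes were above 0 and 6 below. With median centring in place of loess, which moved the brightest probes to a median of -0.11, 1 member probe was above 0 and 14 were below. In bulk RNA of this kind, fewer cells of a type and less RNA per cell cannot be told apart.

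**Figure D1:**
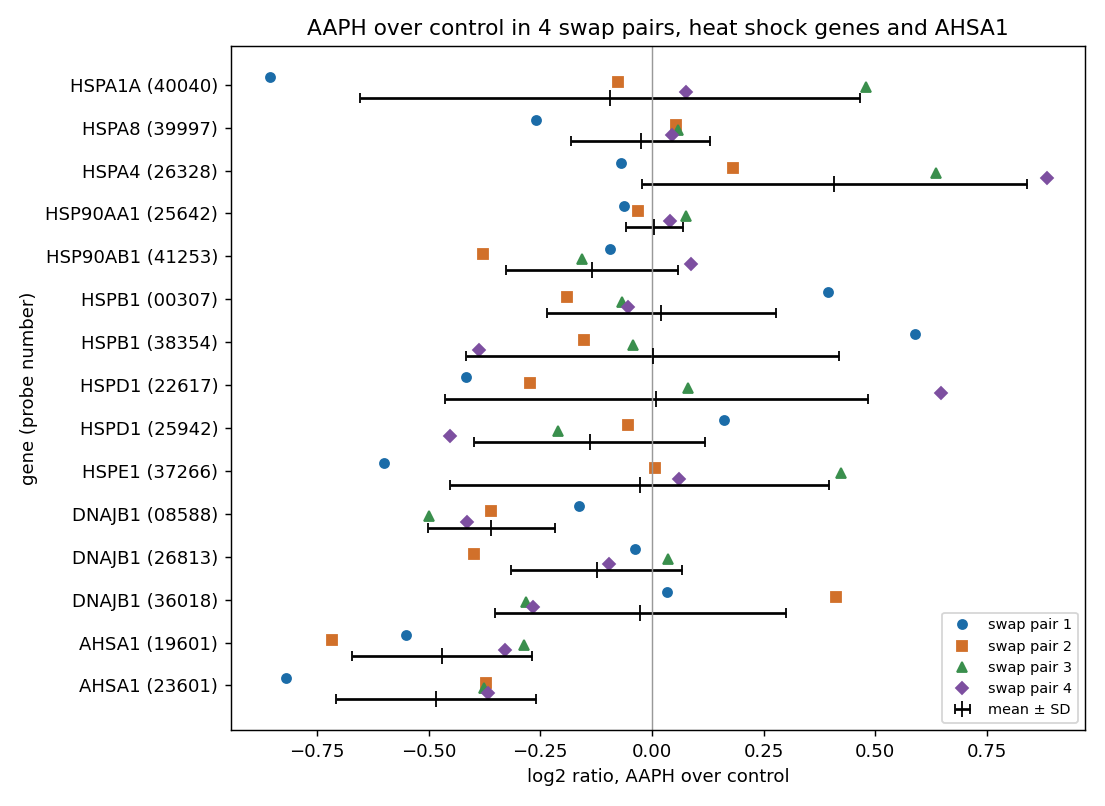
Log2 ratio of AAPH over control (horizontal axis) of each member probe (vertical axis, gene and probe number) in 4 swap pairs, with the mean and SD in black. Both AHSA1 probes and DNAJB1 probe EMBV3_08588 lie below 0 in every pair, while HSPA1A runs from -0.86 in pair 1 to 0.48 in pair 3.

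AHSA1, the co-chaperone that stimulates the ATPase of HSP90, had the lowest ratios of the set, and both of its probes were lower in AAPH in 4 of 4 swap pairs. Probe EMBV3_23601 had ratios of -0.82, -0.37, -0.37 and -0.37 in swap pairs 1 to 4, and probe EMBV3_19601 had -0.55, -0.72, -0.29 and -0.33. The means were -0.48 ± 0.22 (SD, n = 4; 95% interval -0.72 to -0.25), or 1.40-fold lower, and -0.47 ± 0.20 (95% interval -0.69 to -0.25). In this fit neither probe passed over all probes (limma, adjusted p = 0.181 for both). The size of the means moved with the background correction. Without correction they were -0.41 and -0.35, and with normexp at offset 0 in place of 50 they were -0.63 and -0.68. The same sign in all 4 pairs was found for 22.3% of all kept probes, and for 3 of the 15 members.

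Levels of AHSA1 differed more between pools of 1 treatment than between treatments. Pairs 1 and 2 were on slide 26 and pairs 3 and 4 on slides 78 and 79. Differences in level between these sets of pools cannot be told apart from slide. Probe EMBV3_23601 was at 9.46, 8.18, 7.89 and 7.27 in the control pools of pairs 1 to 4, and at 8.64, 7.81, 7.51 and 6.90 in the AAPH pools. The groups overlapped, since 3 of the 4 control pools lay below the AAPH pool of pair 1. Probe EMBV3_19601 followed a similar course, at 8.56, 7.69, 7.43 and 7.21 in control and 8.01, 6.97, 7.14 and 6.88 in AAPH pools, and the levels of the 2 probes had a correlation of 0.95 over the 8 pools. AHSA1 was close to the floor on slides 78 and 79, where both probes were above background on 1 of 2 arrays in both RNAs of pair 4. Over the 8 arrays probe EMBV3_23601 was above background on 6 in AAPH RNA and 7 in control RNA, and probe EMBV3_19601 on 5 and 6. On single arrays, probe EMBV3_19601 was lower in AAPH on all 8 and probe EMBV3_23601 on 7, with a ratio of 0.17 on array 6. Some of these ratios were close to 0, at -0.01 and -0.04 for probe EMBV3_19601 on arrays 5 and 6, and at -0.08 for probe EMBV3_23601 on array 5.

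**Figure D2:**
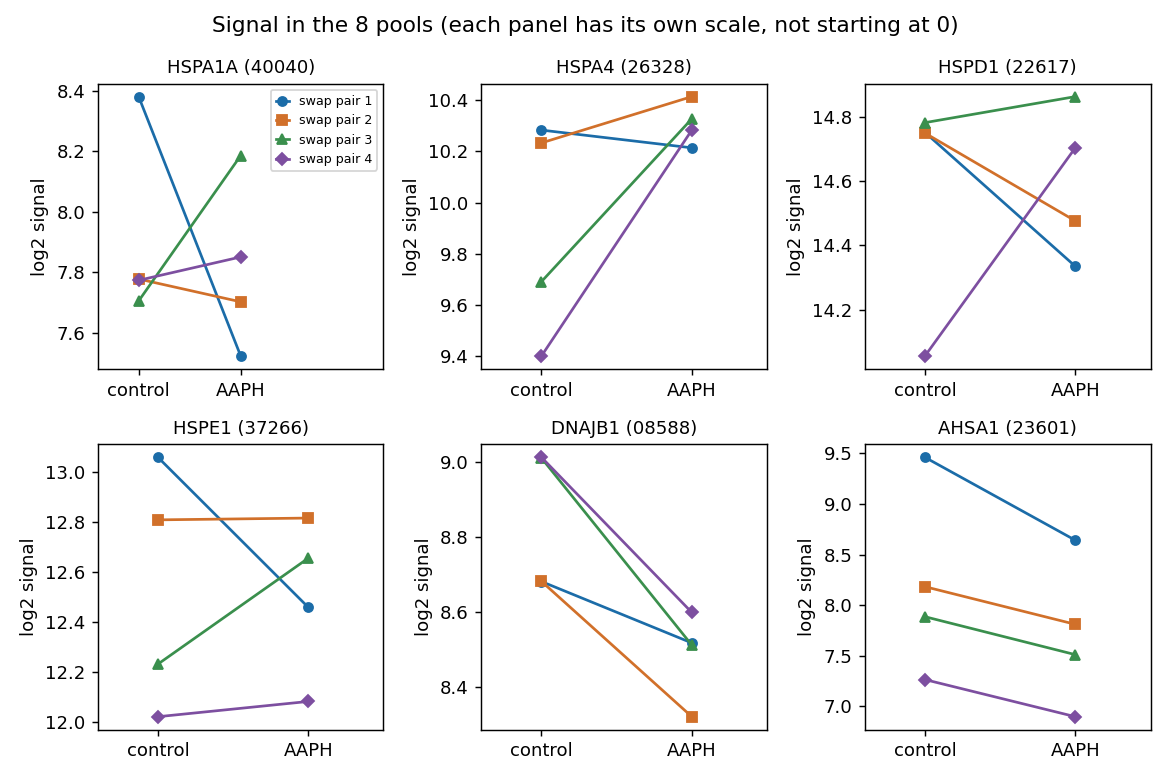
Log2 signal (vertical axis, a separate scale in each panel) in the control and AAPH pools for 6 member probes, with a line joining the 2 pools of a swap pair. For AHSA1 all 4 lines fall, for DNAJB1 probe EMBV3_08588 they fall without overlap between the groups, and for HSPA1A, HSPD1 and HSPE1 they cross.

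Fits that keep the 8 arrays apart called AHSA1 probe EMBV3_19601 but not probe EMBV3_23601. With a dye coefficient and no block, probe EMBV3_19601 had an adjusted p of 0.0171 (limma) and probe EMBV3_23601 one of 0.0583, and DNAJB1 probe EMBV3_08588 also passed (adjusted p = 0.0383). With the swap pair as a replicate block only AHSA1 probe EMBV3_19601 passed (adjusted p = 0.0409). Of all 31325 kept probes, these fits called 389 higher and 552 lower without the block and 140 and 170 with it. Arrays of 1 swap pair are not separate pools. Both AHSA1 probes fail the stricter filter on dim probes and were not tested under it. Over the 16 other alternatives the adjusted p of AHSA1 ran from 0.0171 to 0.425 for probe EMBV3_19601 and from 0.0583 to 0.471 for probe EMBV3_23601.

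DNAJB1, the J protein that delivers clients to cytosolic HSP70 and stimulates its ATPase, gave a different answer with each probe. Probe EMBV3_08588 was lower in AAPH in 4 of 4 pairs, at -0.16, -0.36, -0.50 and -0.41, with a mean of -0.36 ± 0.14 (SD, n = 4; adjusted p = 0.188). Its levels were 8.68, 8.68, 9.01 and 9.01 in the control pools and 8.52, 8.32, 8.51 and 8.60 in the AAPH pools. It was the 1 member whose groups did not overlap, which was the case for 1.91% of all kept probes. Probe EMBV3_26813 was at -0.12 ± 0.19 and probe EMBV3_36018 at -0.03 ± 0.33. The former had ratios of -0.04, -0.40, 0.04 and -0.10 in pairs 1 to 4 and the latter 0.03, 0.41, -0.28 and -0.27. The levels of the 3 probes did not run together over the 8 pools, with correlations of -0.26, -0.16 and 0.30. Which transcript region each probe covers was not analysed here.

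HSPA1A, the stress-inducible HSP70, went in opposite directions in different pools. Its ratios were -0.86, -0.08, 0.48 and 0.08 in swap pairs 1 to 4, with a mean of -0.09 ± 0.56 (SD, n = 4; 95% interval -0.58 to 0.40; adjusted p = 0.869). As a fold of AAPH over control the interval runs from 0.667 to 1.32. The extremes were measured alike in both dye orientations, with -0.87 and -0.84 on the 2 arrays of pair 1 and 0.42 and 0.54 on those of pair 3. Control pools were at 8.38, 7.78, 7.71 and 7.77 and AAPH pools at 7.52, 7.70, 8.19 and 7.85. The highest of the 8 levels was thus that of a control pool and the lowest that of its AAPH partner. Without swap pair 1 the mean ratio was 0.16. HSPA1B, a nearly identical HSP70 gene that RefSeq lists as a synonym of HSPA1A in cattle, is outside the set and was looked up for this reason. Its probe was at -0.76, -0.15, 0.54 and 0.08 over the pairs, with a correlation of 0.94 with the HSPA1A level over the 8 pools. Whether either probe also binds transcripts of the other copy was not tested.

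With loess the HSP90s and the constitutive HSP70 had ratios between -0.13 and 0.01, and with median centring HSPA8 was at -0.15, HSP90AA1 at -0.12 and HSP90AB1 at -0.24. HSPA8, the cognate HSP70 of unstressed cells, was at 15.15, 15.01, 15.09 and 15.05 in control and 14.89, 15.06, 15.15 and 15.09 in AAPH pools, with a ratio of -0.03 ± 0.16 (SD, n = 4; 95% interval -0.22 to 0.17). HSP90AA1, the HSP90 isoform also induced by stress, stayed within 15.18 to 15.09 in control and 15.17 to 15.11 in AAPH pools. Its ratio was 0.01 ± 0.06 (95% interval -0.14 to 0.16). Foreground of the HSPA8 and HSP90AA1 probes lay between 26035 and 39087 units, where the brightest probe of an array and dye reached 35549 to 42238, and whether their ratios and spans were compressed there was not tested. HSP90AB1, the constitutive HSP90, was at -0.13 ± 0.19 (95% interval -0.35 to 0.08), with -0.09, -0.38, -0.16 and 0.09 in pairs 1 to 4. Its control levels ran from 13.15 in the pool of pair 1 to 12.40 in that of pair 4, a span of 0.74.

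HSPA4, a relative of HSP70 in the HSP110 family that acts as its nucleotide exchange factor, had the highest ratio of the set. It was at -0.07, 0.18, 0.64 and 0.88 in swap pairs 1 to 4, with a mean of 0.41 ± 0.43 (SD, n = 4; 95% interval 0.02 to 0.80; adjusted p = 0.352). AAPH pools were close together at 10.21, 10.41, 10.33 and 10.28, whereas control pools were at 10.28, 10.23, 9.69 and 9.40. The 2 lowest of the 8 levels were the control pools of pairs 3 and 4. The mean ratio was 0.06 within slide 26 and 0.76 within slides 78 and 79, a difference that did not pass over all probes (adjusted p = 0.432). HSPA4L, the closest relative of HSPA4, came from a companion list and had ratios of 0.01, 0.03, 0.77 and 0.49 in the same pairs. HSPH1, another relative in that list, was at -0.24, -0.11, -0.0042 and 0.25. Its mean was -0.03 ± 0.21 (SD, n = 4), against 0.32 ± 0.37 for HSPA4L. The HSPA4L probe was dim, and exceeded background for AAPH on 7 arrays and for control on 6. The HSPH1 probe did so on all 8 for both.

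HSPD1 and HSPE1, the HSP60 and HSP10 subunits of the mitochondrial chaperonin, are neighbours in the bovine genome. HSPD1 probe EMBV3_22617 was at -0.42, -0.27, 0.08 and 0.65 in swap pairs 1 to 4, with a mean of 0.01 ± 0.47 (SD, n = 4; 95% interval -0.41 to 0.43). HSPE1 was at -0.60, 0.01, 0.42 and 0.06, with a mean of -0.03 ± 0.42 (95% interval -0.41 to 0.36). HSPE1 levels were 13.06, 12.81, 12.23 and 12.02 in control and 12.46, 12.82, 12.66 and 12.08 in AAPH pools, and the groups overlapped. The second HSPD1 probe, EMBV3_25942, had the opposite order, at 0.16, -0.05, -0.21 and -0.45, and its level had a correlation of -0.72 with that of probe EMBV3_22617 over the 8 pools. The levels of the 2 HSPD1 probes thus did not run together, but probe EMBV3_25942 was dim. It exceeded background for AAPH on 6 arrays and for control on 7, whereas probe EMBV3_22617 did so on all 8 for both. In pair 3 the dim probe did so on 1 of 2 arrays for each RNA, and in pair 4 on 1 of 2 for AAPH. Its mean ratio with AAPH in Cy5 minus that in Cy3 was -2.74. Whether its opposite order reflects HSPD1 transcripts was not tested. The control level of probe EMBV3_22617 was 14.06 in pair 4 against 14.75 to 14.78 in the others.

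HSPB1, the small heat shock protein HSP27 that binds denatured proteins and actin filaments, was higher in AAPH in pair 1 and lower in the 3 other pairs by both probes. Probe EMBV3_38354 was at 0.59, -0.15, -0.04 and -0.39, with a mean of 0.00 ± 0.42 (SD, n = 4; 95% interval -0.37 to 0.38). Probe EMBV3_00307 was at 0.39, -0.19, -0.07 and -0.05, with a mean of 0.02 ± 0.26 (95% interval -0.24 to 0.28). Pair 1 thus had its highest member ratio in HSPB1 and its lowest in HSPA1A. Levels of the 2 HSPB1 probes had a correlation of 0.91 over the 8 pools.

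For some probes the ratio depended on the dye orientation. HSPD1 probe EMBV3_25942 had a mean ratio of -1.51 ± 0.44 (SD, n = 4 arrays) with AAPH in Cy5 and of 1.23 ± 0.09 with AAPH in Cy3. HSPB1 probe EMBV3_00307 was at -0.69 ± 0.42 and 0.73 ± 0.13 in the same order, and DNAJB1 probe EMBV3_36018 at -0.52 ± 0.35 and 0.47 ± 0.31. Averaging within a swap pair removes the part of this effect that is constant. A difference over 1 between the orientations was found for 2 of the 15 member probes and 3.14% of all kept probes. The mean ratio of AHSA1 was below 0 in both orientations, at -0.62 ± 0.27 and -0.34 ± 0.50 for probe EMBV3_23601. Probe EMBV3_19601 was at -0.78 ± 0.28 and -0.16 ± 0.16. On slide 78, with AAPH in Cy3, the ratios of AHSA1 were close to 0. They were -0.08 and 0.17 for probe EMBV3_23601 and -0.01 and -0.04 for probe EMBV3_19601. On slide 79, with AAPH in Cy5, they were -0.67 and -0.91 for the former and -0.56 and -0.61 for the latter. DNAJB1 probe EMBV3_08588 was at -0.58 ± 0.16 with AAPH in Cy5 and at -0.14 ± 0.27 with AAPH in Cy3.

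**Figure D3:**
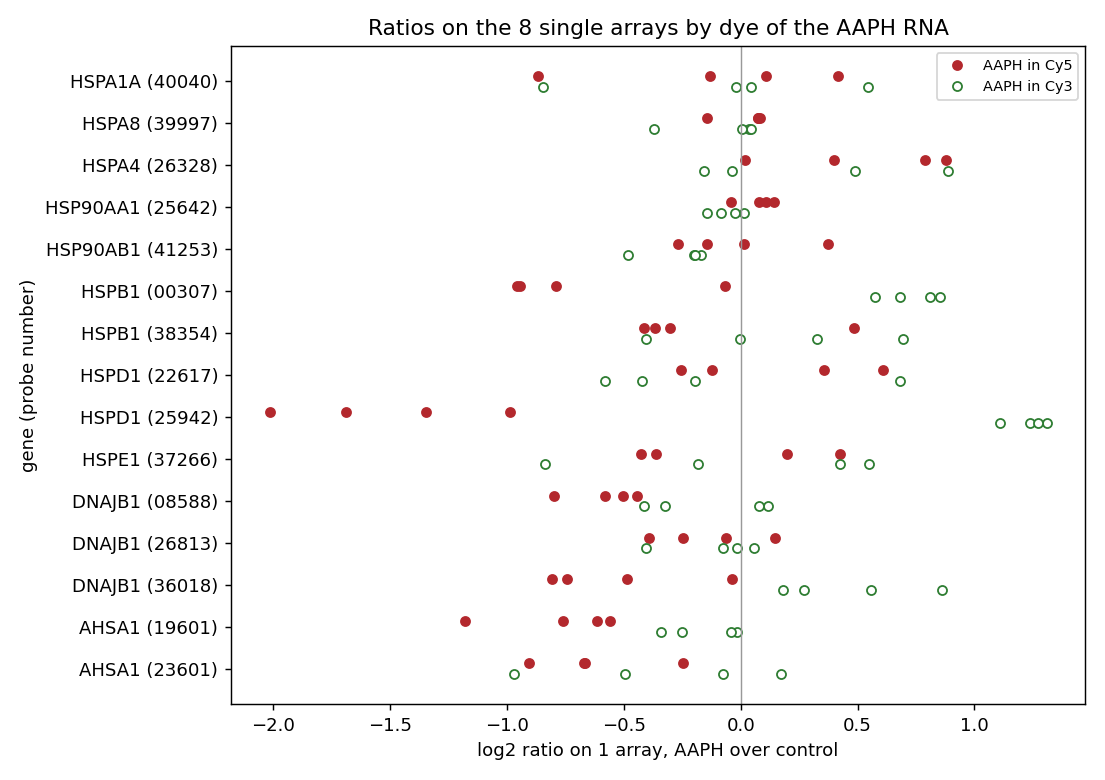
Log2 ratio of AAPH over control on each of the 8 arrays (horizontal axis) for each member probe (vertical axis), with filled points for AAPH RNA in Cy5 and open points for AAPH RNA in Cy3. HSPD1 probe EMBV3_25942 splits fully by dye, from -2.02 to -0.99 against 1.11 to 1.31, whereas HSPA1A spans -0.87 to 0.42 in one orientation and -0.84 to 0.54 in the other.

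No member passed the test of a difference between slides. The difference between slide 26 and slides 78 and 79 had an adjusted p under 0.05 for 0 of the 15 probes and 0% of all probes, with a smallest adjusted p of 0.432 (limma). At an unadjusted p under 0.05 there were 4 of 15, against 9.85% of all probes: HSPA4, HSPD1 probe EMBV3_22617, DNAJB1 probe EMBV3_36018 and AHSA1 probe EMBV3_19601. HSPA1A was at -0.47 on slide 26 and 0.28 on slides 78 and 79, and AHSA1 probe EMBV3_19601 at -0.63 and -0.31. Over the 11 member probes above background on all arrays in both RNAs the median SD of the ratio was 0.33, against 0.24 over all 12271 such probes, and the median span of control levels was 0.67 against 0.63.

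None of the other chaperone genes passed the test. Of 87 genes in 6 companion lists 78 were measured, 0 passed in either direction, and 7 had an unadjusted p under 0.05, 3 higher and 4 lower, against 13.7% of all kept probes. The smallest adjusted p was 0.219, and the median ratio over the 78 genes was -0.01. For each list the 3 genes of smallest p are named. HSPH1 and GRPEL1 are given besides, as relatives of HSPA4 and GRPEL2.

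Among partners of HSP70, 10 of 23 measured genes had a ratio above 0, with a median of -0.01. HSPA4L was at 0.32 ± 0.37 (SD, n = 4), the J protein DNAJB4 at -0.21 ± 0.21 and HSPA2, an HSP70 abundant in male germ cells, at -0.09 ± 0.09. Among 19 HSP90 co-chaperones the median was -0.03, with 9 above 0. TTC4, a co-chaperone with tetratricopeptide repeats, was at -0.49 ± 0.29, but its other probe was at -0.14. CDC37, which brings kinases to HSP90, was at -0.17 ± 0.10 and the ATPase RUVBL2 at -0.13 ± 0.04. None of these passed.

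The cytosolic chaperonin and prefoldin, which fold actin and tubulin, had a median of 0.07 with 10 of 15 genes above 0, and the median was -0.03 with median centring and -0.04 within slide 26. The prefoldin subunits PFDN5 and VBP1 were at 0.25 ± 0.25 (SD, n = 4) and 0.22 ± 0.17, and PFDN1 was at 0.19 ± 0.17 by its brightest probe and at -0.04 by its lowest. Among 11 other mitochondrial chaperones and proteases the median was -0.03. GRPEL2, an exchange factor of mitochondrial HSP70, was at 0.34 ± 0.21 and higher in 4 of 4 pairs, as were 11.5% of all kept probes. Its relative GRPEL1, of the same list, was at -0.22 ± 0.24 and lower in 4 of 4 pairs, with its other probe at -0.23. The mitochondrial HSP90 TRAP1 was at -0.18 ± 0.12, with its other probe at 0.15, and the protease SPG7, above background on 3 arrays in AAPH RNA, was at -0.19 ± 0.14. TRAP1, by its brightest probe, and SPG7 were lower in 4 of 4 pairs, as were 10.8% of all kept probes. These lists held members on both sides of 0.

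Of the other small heat shock proteins 5 were measured, with a median of -0.10. CRYAB, the alpha B crystallin, was at 0.22 ± 0.28 (SD, n = 4), HSPB3 at -0.22 ± 0.24 and HSPB9 at -0.10 ± 0.02. These probes were dim. CRYAB was above background on 6 arrays in both RNAs, HSPB3 on 5 in both, and HSPB9 on 4 in AAPH and 5 in control RNA. The heat shock factors lay on both sides of 0. HSF1, the main activator of the response, was at 0.08 ± 0.25, with -0.01, -0.10, 0.45 and -0.02 in pairs 1 to 4. HSF2 was at -0.14 ± 0.16 and HSF4 at 0.15 ± 0.09. The list of 5 genes had a median of 0.08, which was -0.0016 with median centring and also without swap pair 3. HSF1 and HSF2 were above background on 6 of 8 arrays in both RNAs, and HSF4 on 4.

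**Figure D4:**
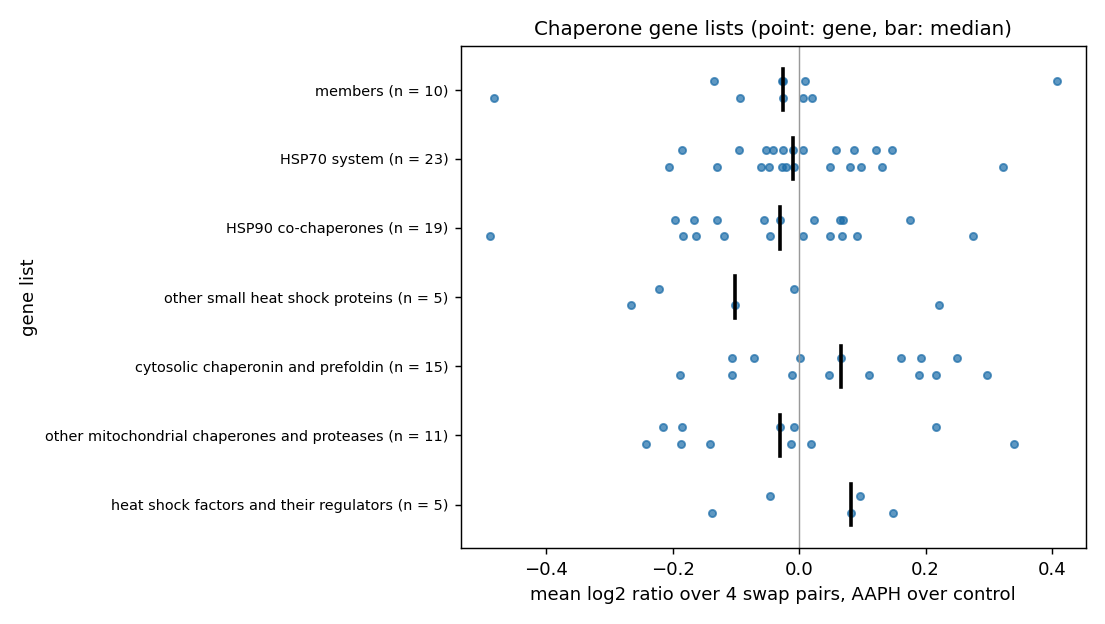
Mean log2 ratio of AAPH over control over 4 swap pairs (horizontal axis) for each measured gene of the members and of 6 companion lists (vertical axis), with 1 point per gene from its brightest kept probe and a bar at the list median. All medians lie between -0.10 and 0.08, and the members AHSA1 (-0.48) and HSPA4 (0.41) lie at opposite ends of their list. With median centring the median is -0.13 over all member probes and -0.12 for the mitochondrial list, both outside this range. That of the heat shock factors is then -0.0016 and that of chaperonin and prefoldin -0.03.

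Beside these ratios, all 10 fibroblast and connective tissue markers had a ratio above 0, with a median of 0.71 and pair medians of 1.19, 0.95, 0.64 and 0.24. None passed, and 8 had an unadjusted p under 0.05, all higher, against 5.73% of all kept probes. Their summed level ran from 12.26 to 13.37 on the log2 scale in control and from 12.60 to 15.16 in AAPH pools, and 2 of the 10 were above background on all 8 arrays in control RNA against 5 in AAPH RNA. Of 9 measured cumulus and granulosa cell markers 8 were above 0, with a median of 0.14. None passed, and 3 had an unadjusted p under 0.05, all higher, against the same 5.73%. These were PTX3 (1.10), TNFAIP6 (0.85) and INHBA (0.50). Summed levels of the list were 11.78 to 13.41 in control and 12.15 to 13.53 in AAPH pools. The part of these cells in the member ratios was not tested.

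Genes whose level most resembled a member over the 8 pools were taken from about 6114 genes above background on all arrays. Each correlation rests on 8 pools, and the partners in a swap pair were hybridised together. The level of HSPA1A was most like those of F2 (r = 0.92), TMEM49 (r = 0.86) and the member HSP90AA1 (r = 0.85), and 0.121% of the probes compared had an r over 0.8. HSP90AB1 was most like LOC616199 (r = 0.99), FAM32A (r = 0.98) and LGALS4 (r = 0.98), and AHSA1 probe EMBV3_23601 most like YBX1 (r = 0.98), M6PR (r = 0.97) and MRPL43 (r = 0.96). An r over 0.8 was found for 4.84% of probes with HSP90AB1 and for 4.30% with AHSA1. HSP90AB1 and AHSA1 probe EMBV3_23601 had a correlation of 0.92 with each other, and among control pools both were highest in pair 1 and lowest in pair 4. These pairs were on different slides, and the part of the slide in this correlation was not tested.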

How the data were processed

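RNA from 8 pools of 10 blastocysts was amplified with T7 polymerase, per the labels' protocols, and hybridised to 8 two-colour arrays. The deposited scanner files hold mean foreground and median local background intensity of each spot per the file headers. No source names the scanner software. The authors' deposited table of log2 ratios, for which the submitters' processing notes name limma, served as an alternative. It had correlations of 0.967 to 0.994 with the scanner ratios turned to AAPH over control, and column medians of -0.0135, -0.00863, 0.0117, 0.00944, -0.0152, 0.00799, -0.0188 and -0.0197 for arrays 1 to 8. Its normalization and centring remain unknown.

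In R 4.3.3 with limma 3.58.1, 14 lines of column statistics per file were left out, intensities were corrected with normexp (offset 50), and ratios were normalized by loess within arrays, giving control spots no weight. Levels used Aquantile scaling. Background was the median plus 3 median absolute deviations of 757 negative control spots. Probes above it on at least 4 of 8 arrays in either RNA stayed in, which left 31325 of 43794 probes. The labels do not say which arrays share extracts. Arrays of opposite orientation were paired by the correlation of their deviations over kept probes (0.155 to 0.569 in the 4 pairs, -0.343 to 0.0438 in the 12 others) and averaged, which leaves 3 residual degrees of freedom. Ratios were tested against 0 with lmFit and eBayes, with Benjamini-Hochberg adjustment over all kept probes and a threshold of 0.05. The procedure was tested on simulated data. Alternatives covered background, normalization, filter, replicate unit, slide and variance model. The number of pools limits the precision. All member probes are described, and of each companion list the 3 genes of smallest p, with the brightest kept probe for each gene. HSPH1 and GRPEL1 are given besides, as relatives of HSPA4 and GRPEL2. Symbols come from the platform annotation, which is old and gives 1 symbol for 21790 probes and none for 22004. Neighbouring genes and synonyms come from RefSeq for ARS-UCD2.0. Members and lists were chosen with earlier results of these data known. No sequences were used here.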

Additional observations from a re-analysis of the deposited data

Results flagged for a closer look

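In 5 of 52 values 1 swap pair stood far from the other 3, where chance gives about 2.6, and values of 1 probe are not independent. In swap pair 1 the control level of HSPA1A was 8.38, against 7.71 to 7.78 in the other control pools. In the same pair the ratio of HSPA8 was -0.259, against 0.05 to 0.06, and the ratio of AHSA1 probe EMBV3_23601 was -0.819, against -0.37 in the 3 others. In swap pair 4 the control level of HSPD1 probe EMBV3_22617 was 14.1, against 14.75 to 14.78. In swap pair 3 the median ratio of other mitochondrial chaperones and proteases was 0.0856, against -0.08 to -0.06.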

How the results depend on the processing

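Over the alternatives run, the ratios of HSPA4, HSP90AB1, both AHSA1 probes and DNAJB1 probes EMBV3_08588 and EMBV3_26813 kept their sign, but the stricter filter removed both AHSA1 probes. With normexp at offset 0, HSPB1 probe EMBV3_38354 was at -0.0042 and the small heat shock proteins had a median of -0.19. Median centring gave medians of -0.13 for the members, -0.12 for the mitochondrial list, -0.033 for chaperonin and prefoldin and -0.0016 for the heat shock factors, and turned HSP90AA1 to -0.12, HSPB1 probes EMBV3_00307 and EMBV3_38354 to -0.070 and -0.078 and HSPD1 probe EMBV3_22617 to -0.12. The authors' deposited table put HSPA8 at 0.0094, and the mean of both probes put HSPD1 at -0.064. A stricter filter, which asked for signal above background on every array in 1 of the RNAs, left 14358 probes and removed both AHSA1 probes and HSPD1 probe EMBV3_25942. Under it 14 probes were called higher and 15 lower, none of them among the member probes left. HSPB8, the 1 small heat shock protein left, was at -0.27 ± 0.66 (SD, n = 4) by its brightest probe. Its other probes kept by the main filter had a median of -0.08. As 8 single arrays with no replicate block, 389 of all 31325 kept probes passed higher and 552 lower, and 2 of the 15 member probes passed. With the swap pair as a replicate block (paired analysis, correlation 0.32) 140 and 170 of the same 31325 passed, and 1 of the 15 member probes. Within slide 26 the medians were -0.22 for members, -0.14 for the mitochondrial list and 0.013 for the factors, with HSP90AA1 at -0.047, HSPD1 probes EMBV3_22617 and EMBV3_25942 at -0.34 and 0.053 and DNAJB1 probe EMBV3_36018 at 0.22. Within slides 78 and 79 the HSP70 partners had a median of 0.096 and the factors -0.045, with HSPA1A at 0.28, HSPA8 at 0.052, HSPB1 probes EMBV3_00307 and EMBV3_38354 at -0.060 and -0.22 and HSPE1 at 0.24.

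Leaving out each swap pair in turn called 0 probes in either direction and 0 members. The medians ran from -0.12 to -0.052 for members, -0.020 to 0.043 for HSP70 partners, -0.090 to 0.024 for HSP90 co-chaperones, -0.10 to -0.029 for small heat shock proteins, -0.0026 to 0.15 for chaperonin and prefoldin, -0.11 to -0.046 for the mitochondrial list and -0.021 to 0.11 for the factors. Members that changed sign are given by their range and the pair whose omission turned them. HSPA1A ran from -0.28 to 0.16, HSPA8 from -0.053 to 0.053, HSPE1 from -0.18 to 0.16, and HSPB1 probes EMBV3_00307 and EMBV3_38354 from -0.10 to 0.091 and from -0.19 to 0.13, all turned without pair 1. HSP90AA1 ran from -0.018 to 0.029, HSPD1 probe EMBV3_22617 from -0.20 to 0.15 and DNAJB1 probe EMBV3_36018 from -0.17 to 0.059, all turned without pair 3 and without pair 4. HSP90AB1 kept its sign, from -0.21 to -0.053. The cause of these moves was not tested. With 4 pools per treatment, and AHSA1 near background on slides 78 and 79, small differences cannot be resolved.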
